A study of Arabidopsis thaliana with 48 samples.

Results

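The WRKY family was taken as the rows of the gene table whose name is WRKY or ATWRKY followed by a number alone. Of 26988 genes in the table, 66 had such a name, and 62 of these had a count in at least 4 of the 48 libraries and are described as members. WRKY64, WRKY66, WRKY67 and WRKY68 were at 0 throughout. ZAP1, TTG2, ABO3 and RRS1, known also as WRKY1, WRKY44, WRKY63 and WRKY52, stood in the table under those other names and were not counted as members.

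RNA came from shoots of Arabidopsis thaliana (Columbia ecotype), cut above the hypocotyl at an age of 3 weeks. The 3 genotypes were gi-2, a mutant of the clock and flowering gene GIGANTEA (GI), aba1-6, a mutant of the zeaxanthin epoxidase ABA1 that makes too little abscisic acid (ABA), and wild type, each mutant being a single allele. Plants of each genotype grew either under drought, at 30% relative soil water content from soon after germination, or under normal watering at 80 to 90%. All were raised in short days of 8 h light and moved to long days of 16 h light on the day of harvest, which was at zeitgeber time (ZT, hours after lights on) 1, 8, 12 or 16, so that ZT12 and ZT16 fell in the added light. Each of the 24 combinations had 2 libraries (r1 and r2, replicates 1 and 2), labelled as biological replicates, and each library pooled about 50 seedlings from 3 pots. The title of the series presents GI as a repressor of ABA responses, and the questions asked of the family here are how drought, each mutation and time of day change its transcripts. In such whole shoots, fewer cells that express a gene and less of its RNA per cell cannot be told apart.

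WRKY proteins are plant transcription factors named for the conserved WRKYGQK heptapeptide of their DNA-binding domain. It is followed by a zinc finger, and the domain recognises the W-box, a short DNA element with the core TTGAC. Group I factors carry a pair of these domains, group II factors 1 domain with a C2HH zinc finger, split into subgroups IIa to IIe, and group III factors 1 domain with a C2HC zinc finger. Many members act in immunity, salicylic acid signalling and leaf senescence, and some in responses to ABA, drought, heat or low phosphate. The 62 members comprised 11 of group I, 3 of IIa, 8 of IIb, 16 of IIc, 7 of IId, 7 of IIe, 9 of group III and WRKY19, a fusion with an immune receptor of the NLR class. The coding sequences of 59 of the 62, read from the TAIR10.1 genome, had the domain number and zinc finger of the listed group (exceptions WRKY10, WRKY19 and WRKY36).

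The part of the coding sequence that spells the heptapeptide is shown for 3 members that the drought results turn on and for 1 variant, with the sixth codon, glutamine or lysine, in capitals. WRKY25 and WRKY26 belong to group I and so have a pair of heptads each, in order from the start codon.
WRKY60: tggaggaaatacgggCAAaag
WRKY25, first domain: tggagaaaatacggtCAGaaa
WRKY25, second domain: tggaggaaatatggtCAAaaa
WRKY26, first domain: tggcgcaaatacgggCAGaag
WRKY26, second domain: tggagaaagtatggtCAGaaa
WRKY51: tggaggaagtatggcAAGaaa
The sixth codon read glutamine in 57 members and lysine in WRKY50, WRKY51 and WRKY59. Only heptads followed by a searched zinc finger pattern were read. WRKY19 and WRKY36 had no such pair, which does not show that the heptad itself is absent.

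Upstream sequence is shown for the members whose drought response differed between genotypes, WRKY60 and WRKY25, and for WRKY26, which was called lower under drought in every genotype. Each window runs from 250 bases before to 50 after the annotated start in TAIR10.1, on the strand of the gene, and capitals mark a W-box, searched as TTGACC and TTGACT on both strands.
WRKY60, chr2:10629412-10629711, plus strand: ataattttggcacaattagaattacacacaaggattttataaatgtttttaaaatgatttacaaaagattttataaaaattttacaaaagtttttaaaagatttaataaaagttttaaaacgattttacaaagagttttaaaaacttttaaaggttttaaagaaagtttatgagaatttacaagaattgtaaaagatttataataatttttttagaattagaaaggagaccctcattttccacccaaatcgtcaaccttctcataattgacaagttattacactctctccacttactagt
WRKY25, chr2:12905289-12905588, minus strand: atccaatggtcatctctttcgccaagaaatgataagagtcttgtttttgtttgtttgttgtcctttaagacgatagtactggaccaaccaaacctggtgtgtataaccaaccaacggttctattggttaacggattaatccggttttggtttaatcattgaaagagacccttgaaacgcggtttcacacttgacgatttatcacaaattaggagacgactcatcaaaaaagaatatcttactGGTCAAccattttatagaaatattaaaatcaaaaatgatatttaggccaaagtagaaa
WRKY26, chr5:2203956-2204255, plus strand: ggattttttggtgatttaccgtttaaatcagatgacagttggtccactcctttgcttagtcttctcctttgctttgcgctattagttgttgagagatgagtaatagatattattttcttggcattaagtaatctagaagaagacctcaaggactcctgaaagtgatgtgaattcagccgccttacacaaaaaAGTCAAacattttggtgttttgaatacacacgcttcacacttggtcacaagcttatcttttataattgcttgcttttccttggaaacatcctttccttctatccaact
The window of WRKY25 held 1 match 8 bases before the start, that of WRKY26 held 1 match 58 bases before it, and that of WRKY60 held neither searched form. The core TTGAC followed by other bases does occur in the printed windows of WRKY60 and WRKY25, and such sites were not counted. Over the family 22 of 62 windows had a match (35.5%), against 8883 of 27443 windows of all protein-coding genes (32.4%). Among the 15 members called lower under drought in wild type, 8 had one (53.3%), a description of a set that the values themselves chose. ABA-responsive elements, searched as ACGTGGC and ACGTGTC on both strands, were in 8.1% of the members' windows and 7.6% of all windows. The evening element of clock-regulated genes, AAATATCT on both strands, was in 8.1% of the members' windows and 5.6% of all.

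Total counts per library ran from 1920012 to 26925706. The shallowest libraries were wild type under normal watering at ZT12 r1 and wild type under drought at ZT16 r2. The mutated genes were still transcribed in their mutants, so their time-averaged levels do not check the labels. GI averaged 83.0 CPM (counts scaled to a common library total) in gi-2 and 112 CPM in wild type under normal watering. In the same regime ABA1 averaged 215 CPM in aba1-6 and 260.0 CPM in wild type. There the time courses of both genes differed between gi-2 and wild type (edgeR adjusted p under 0.05). Their levels at single times were not used to check labels. One library, gi-2 under drought at ZT16 r2, carries wild type in its genotype tag and gi-2 in its title, and was used by the title. Enough counts for a test were present for 49 of the 62 members. The 13 others averaged at most 0.528 CPM in any genotype and watering regime (WRKY35 was highest) and are WRKY9, WRKY10, WRKY24, WRKY31, WRKY34, WRKY35, WRKY43, WRKY49, WRKY55, WRKY56, WRKY59, WRKY61 and WRKY71. Per kilobase of exon in normally watered wild type, the most abundant members were WRKY70 at 43.0 CPM per kb (17.9 to 54.1 over 8 libraries), WRKY3 at 21.0, WRKY54 at 19.0, WRKY11 at 16.6 and WRKY15 at 13.2.

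Under drought in wild type, averaged over the 4 times, 15 of the 49 tested WRKY members were called lower, 0 higher and 34 not at all (edgeR's quasi-likelihood test, Benjamini-Hochberg adjusted p under 0.05 over 19037 genes). Of all genes tested, 12.7% were called lower, 10.2% higher and 23.0% in either direction. At an unadjusted p under 0.05, 21 members were lower and 2 higher, and DESeq2 called 15 lower and 0 higher. The median log2 fold change was -0.28 over the members, or -0.26 without 6 members that had a combination with both libraries at 0, and 0.01 over all genes. The 15 were spread over most groups: 3 of 9 tested in group I (WRKY25, WRKY26, WRKY58), 2 of 3 in IIa (WRKY18, WRKY60), 3 of 5 in IIb (WRKY6, WRKY36, WRKY47), 4 of 10 in IIc (WRKY8, WRKY28, WRKY45, WRKY75), 1 of 7 in IId (WRKY15), 2 of 6 in IIe (WRKY27, WRKY29) and 0 of 8 in group III.

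**Figure D1:**
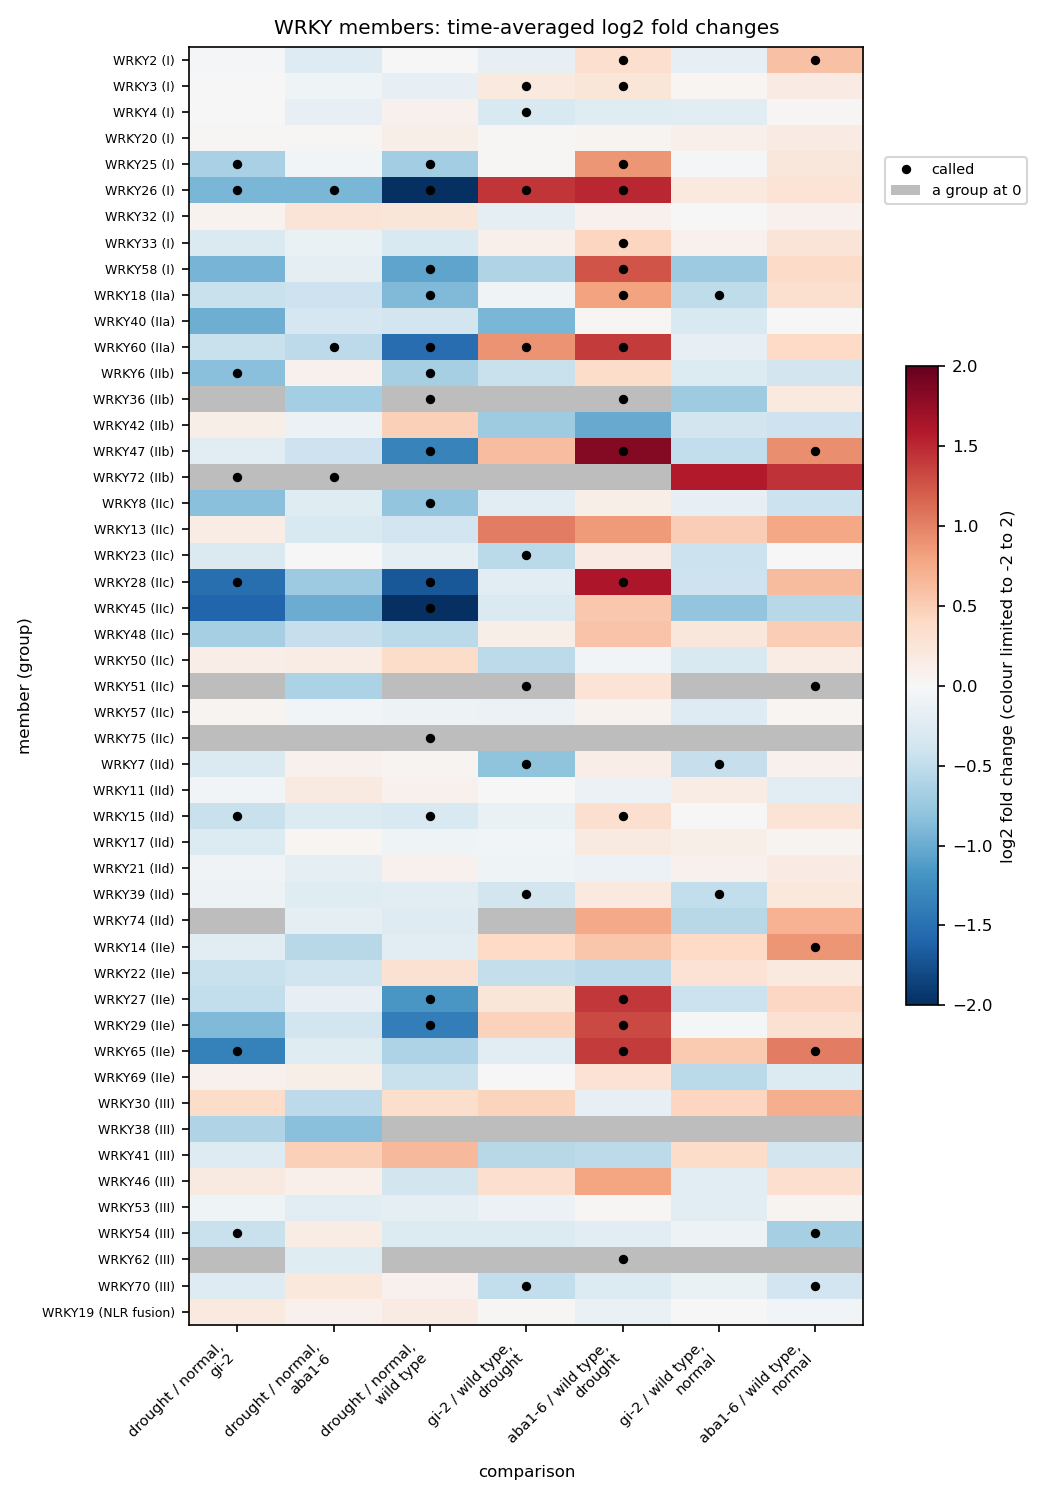
Time-averaged log2 fold changes of the 49 tested members (rows, with their group) in 7 comparisons (columns), where blue is lower, red is higher and dots mark calls at an edgeR adjusted p under 0.05. Grey cells have a combination at 0 in both libraries, so no size is shown. Outside grey cells, the 13 dots for drought in wild type lie on lower values and the 14 dots for aba1-6 against wild type under drought on higher values, with 2 more calls in grey cells in each.

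The factors of group IIa, WRKY18, WRKY40 and WRKY60, are related proteins that bind one another and act in ABA responses and in defence. WRKY60 (AT2G25000) had 1.39, 3.34 and 5.97 CPM in wild type under drought (lowest, median and highest of 8 libraries), against 5.53, 12.3 and 14.1 CPM under normal watering. The ranges met only at the edge, and within each of the 4 times both drought libraries lay below both normal ones. Its log2 fold change was -1.52 ± 0.21 (SE, edgeR adjusted p = 4.4e-07), and single times gave calls too, -1.53 ± 0.36 in the morning at ZT1, -1.46 ± 0.44 at ZT8 and -1.82 ± 0.41 at ZT12. WRKY18 had 2.66, 5.40 and 12.3 CPM under drought, against 4.67, 9.15 and 13.5 CPM under normal watering. Its groups overlapped through 1 drought library at ZT16 with 12.3 CPM, beside a replicate with 2.73. They overlapped also through a normal library at ZT8 with 4.67 CPM, below both drought libraries of that time (5.39 and 5.48 CPM). Its log2 fold change was -0.89 ± 0.18 (edgeR adjusted p = 0.000284), but at ZT8 alone -0.25 ± 0.35 (edgeR adjusted p = 0.744). WRKY40 was low, with medians of 1.67 CPM under drought and 1.99 CPM under normal watering, and was not called (log2 fold change -0.36 ± 0.34, edgeR adjusted p = 0.49). A stretch of 272 bases of its exon sequence has 95.221% identity with another locus, AT3G32090, and a stretch of 85 bases has 98.824%, so reads from these stretches could be split.

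Among group I factors, WRKY25, WRKY26 and WRKY33 are known for heat tolerance, and WRKY33 also for the synthesis of the defence compound camalexin. WRKY25 (AT2G30250) had 6.75, 7.21 and 11.3 CPM in wild type under drought, against 11.5, 13.2 and 16.7 CPM under normal watering. All 8 drought libraries lay below all 8 normal ones, which held for no other tested member in this direction and for 0.630% of all genes. Its log2 fold change was -0.70 ± 0.14 (edgeR adjusted p = 0.000194). WRKY26 (AT5G07100) had 0, 0.883 and 2.98 CPM under drought, against 0.793, 4.14 and 7.12 CPM under normal watering. Much of that spread was time of day, and at each time both drought libraries were below both normal ones. It fell by 2.14 ± 0.35 on the log2 scale (edgeR adjusted p = 8.78e-06), and at ZT12, where it had 0 and 0.285 CPM under drought against 3.13 and 2.38 CPM, by 3.82 ± 0.86. WRKY33 had 10.3, 17.8 and 24.1 CPM under drought, against 15.7, 20.3 and 27.4 CPM under normal watering, and was not called over all times (-0.31 ± 0.13, edgeR adjusted p = 0.0684). At ZT16 alone it was called lower, with 10.3 and 19.2 CPM under drought against 24.6 and 27.4 CPM (-0.96 ± 0.27, edgeR adjusted p = 0.0328).

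In groups IIb and IIc, WRKY6 is a factor of senescence and phosphate transport, WRKY28 promotes the salicylic acid gene ICS1, and WRKY45 and WRKY75 act in phosphate starvation and senescence. WRKY6 had 3.08, 6.31 and 8.86 CPM in wild type under drought, against 6.45, 9.84 and 14.1 CPM under normal watering, and fell by 0.66 ± 0.17 (edgeR adjusted p = 0.00314). WRKY28 had 0, 0.857 and 1.33 CPM under drought, against 0.934, 3.02 and 8.45 CPM. WRKY47 had 0, 1.15 and 2.88 CPM under drought, against 1.40, 4.04 and 6.74 CPM. In each of these 3 the drought libraries were mostly the lower ones but the ranges overlapped. WRKY28 fell by 1.70 ± 0.40 (edgeR adjusted p = 0.00146) and WRKY47 by 1.34 ± 0.30 (edgeR adjusted p = 0.000922). WRKY45 had 0, 0.421 and 1.22 CPM under drought, against 0.667, 1.42 and 5.69 CPM, and fell by 2.08 ± 0.52 (edgeR adjusted p = 0.00267). WRKY75 was at 0 in 6 of 8 drought libraries, with 4 counts over all of them, and in 2 of 8 normal libraries, with 38 counts. Its call (edgeR adjusted p = 0.0203) is therefore given with no size.

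Several of these values rest on few counts, and single libraries moved them. Leaving out wild type under normal watering at ZT12 r2 ended the call of WRKY45 (edgeR adjusted p = 0.0531), and leaving out that library or normal watering at ZT16 r2 ended that of WRKY75. Without wild type under drought at ZT1 r1, WRKY45 was at -3.50, its other library there being at 0. Without wild type under drought at ZT16 r1, WRKY47 was at -3.15 and WRKY28 at -3.22, since the remaining shallow library had 0 counts of both. The calls of WRKY60, WRKY26, WRKY25, WRKY18 and WRKY6 held when any 1 of the 16 libraries was left out, with edgeR adjusted p of at most 0.0222.

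**Figure D2:**
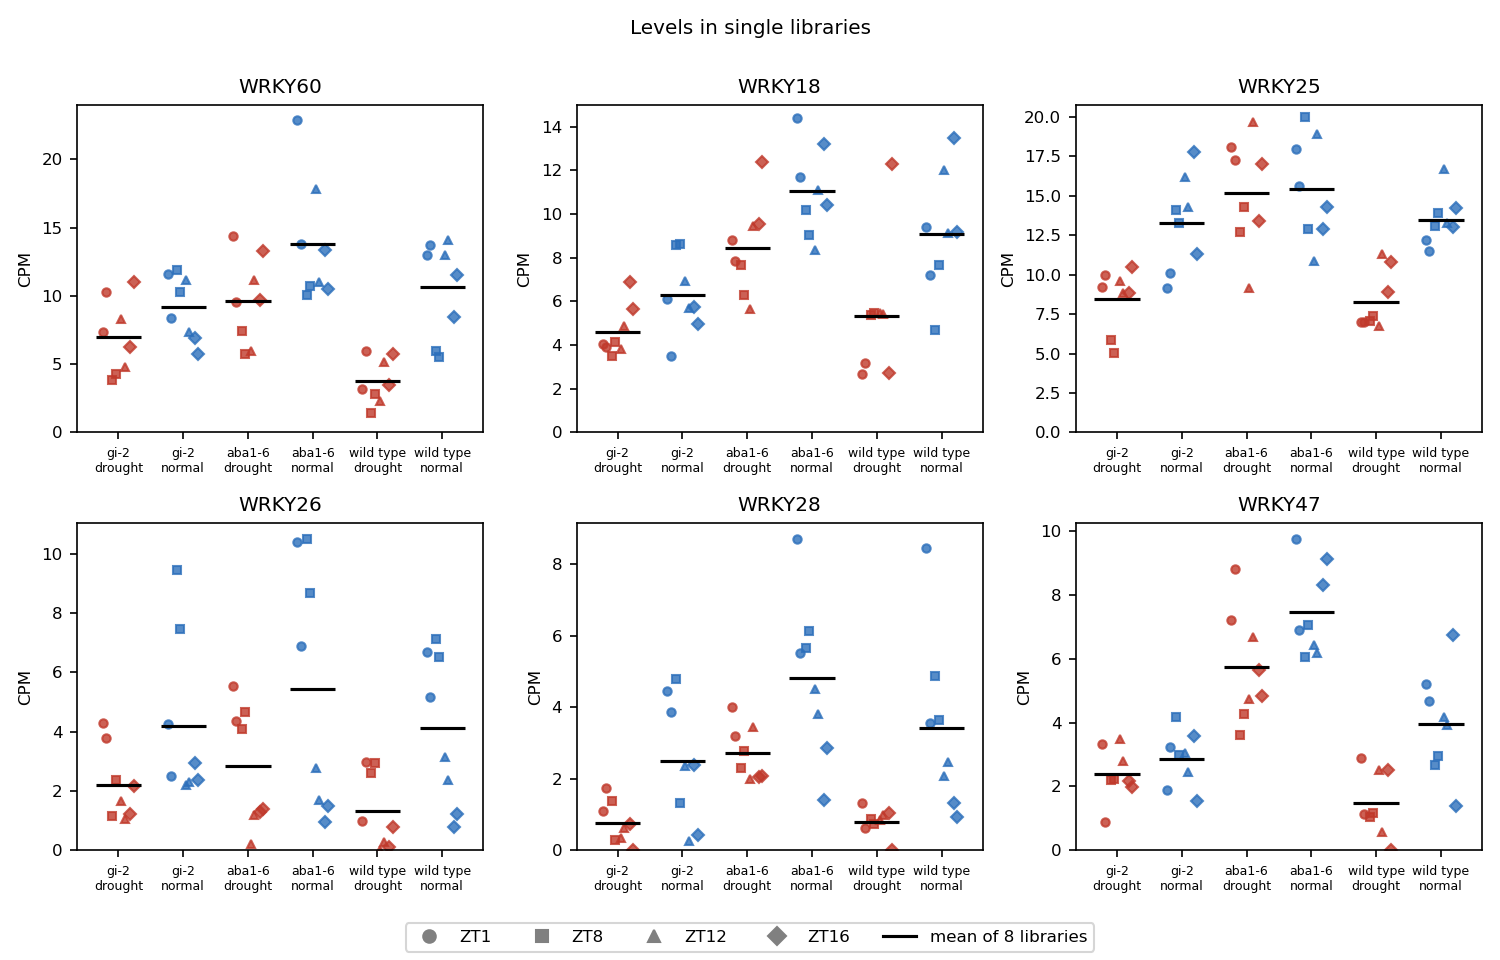
CPM of 6 members in each of 48 libraries, by genotype with drought left of normal watering; marker shapes give the time of harvest and bars the mean of 8 libraries. In wild type the 8 drought values of WRKY25, from 6.75 to 11.3 CPM, lie below the 8 normal ones, from 11.5 to 16.7 CPM, while in aba1-6 the same gene ranges from 9.18 to 19.7 CPM under drought and from 10.9 to 20.0 CPM under normal watering.

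WRKY22 and WRKY29, of group IIe, act downstream of the MAP kinases of flagellin signalling. WRKY29 had 0 to 2.43 CPM in wild type under drought, against 0 to 2.91 CPM under normal watering, and was called lower (-1.38 ± 0.46, edgeR adjusted p = 0.0252). Those ranges overlapped, and the call ended without any 1 of 5 wild-type libraries: drought at ZT1 r2, ZT12 r2 or ZT16 r1, and normal watering at ZT8 r2 or ZT12 r2. Without drought at ZT12 r1 its value was -2.87. It also shares 251 exon bases with the neighbouring gene GH9B15. WRKY22 was not called (0.31 ± 0.35, edgeR adjusted p = 0.562). The 5 remaining calls were WRKY27, WRKY36, WRKY58, WRKY8 and WRKY15, listed to complete the 15. Apart from WRKY36, which had a combination at 0, their log2 fold changes ran from -1.16 for WRKY27 to -0.31 for WRKY15, one of the calmodulin-binding group IId.

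Group III holds WRKY53, a regulator of leaf senescence, WRKY54 and WRKY70, partners in salicylic acid signalling, and WRKY46. None of its 8 tested members was called in wild type under drought over all times. WRKY70 had 25.2, 80.2 and 115 CPM under drought, against 26.3, 74.4 and 79.5 CPM under normal watering (0.09 ± 0.13, edgeR adjusted p = 0.659). WRKY54 had 2.88, 30.9 and 46.2 CPM under drought, against 6.24, 31.4 and 40.0 CPM (-0.28 ± 0.12, edgeR adjusted p = 0.0822). For both members the lowest value of each condition was at ZT1. In WRKY70 the drought libraries lay above the normal ones at ZT8 (99.4 and 105 CPM against 55.8 and 79.2 CPM) and ZT12 (89.7 and 115 CPM against 77.1 and 73.6 CPM). They lay below them at ZT16 (53.9 and 70.8 CPM against 75.2 and 79.5 CPM), so that its time average joins opposite differences. By edgeR WRKY70 was not called at any single time, with log2 fold changes of -0.31, 0.58, 0.45 and -0.34 at ZT1, ZT8, ZT12 and ZT16 (adjusted p of 0.655, 0.19, 0.397 and 0.552). At ZT1 alone WRKY54 was called lower, with 3.65 and 2.88 CPM under drought against 6.50 and 6.24 CPM (-0.96 ± 0.30, edgeR adjusted p = 0.0419). WRKY53 (-0.19 ± 0.17, edgeR adjusted p = 0.455) and WRKY46 (-0.37 ± 0.32, edgeR adjusted p = 0.449) were not called. Neither was WRKY57 of group IIc, known for drought tolerance (-0.10 ± 0.21, edgeR adjusted p = 0.786).

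Tested one time at a time, with 2 libraries against 2, wild type had 8 members called under drought at ZT1 (background 6.31% of all genes). ZT8 had 3 (6.53%), ZT12 had 2 (6.12%) and ZT16 had 1 (3.70%), and each call was lower. WRKY60 was among those of ZT1, ZT8 and ZT12.

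In gi-2, 8 of 49 members were called lower under drought and 0 higher, against 3.53% of all genes lower, 1.64% higher and 5.17% in either direction. At an unadjusted p under 0.05, 20 were lower and 1 higher, and DESeq2 called 7 lower and 0 higher. The median log2 fold change was -0.29, or -0.27 without 6 members with a combination at 0, and 0.00 over all genes. WRKY6 had 3.38, 4.62 and 5.49 CPM in gi-2 under drought, against 4.30, 8.30 and 12.7 CPM under normal watering. WRKY25 had 5.03, 9.03 and 10.5 CPM under drought, against 9.13, 13.7 and 17.8 CPM. WRKY65, of group IIe, had 0.291, 0.762 and 1.83 CPM under drought, against 0.953, 2.33 and 2.86 CPM. The drought medians of WRKY25 and WRKY65 lay below their lowest normal values, though the ranges of all 3 overlapped.

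The log2 fold changes in gi-2 were -0.83 ± 0.17 for WRKY6 (edgeR adjusted p = 0.00154), -0.65 ± 0.14 for WRKY25 (edgeR adjusted p = 0.00184), -1.35 ± 0.31 for WRKY65 (edgeR adjusted p = 0.00439) and -0.44 ± 0.10 for WRKY15 (edgeR adjusted p = 0.00553). These 4 calls held without any 1 of the 16 gi-2 libraries. WRKY26 (-0.91 ± 0.24), WRKY54 (-0.44 ± 0.12) and WRKY28 (-1.51 ± 0.41) were called less firmly, at edgeR adjusted p of 0.0175, 0.0182 and 0.0201. The call of WRKY26 ended without drought at ZT8 r1, ZT12 r2 or ZT16 r1 or normal watering at ZT1 r1. That of WRKY54 ended without drought at ZT1 r2 or ZT8 r1 or normal watering at ZT1 r2 or ZT8 r2. That of WRKY28 ended without drought at ZT1 r1 or ZT16 r2 or normal watering at ZT8 r1, ZT16 r1 or ZT12 r1 (then -0.98), and its value was -2.80 without drought at ZT16 r1, its other library there being at 0. WRKY72 had 14 counts in all under drought and 60 under normal watering; its call (edgeR adjusted p = 0.0492) ended in 14 of 16 such fits, all but those without drought at ZT1 r1 or ZT16 r2.

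WRKY60 had 3.84, 6.83 and 11.0 CPM in gi-2 under drought, against 5.77, 9.35 and 11.9 CPM under normal watering. Most of its range was shared, and it was not called over all times (-0.45 ± 0.18, edgeR adjusted p = 0.163). WRKY18 was not called either, with medians of 4.10 CPM under drought and 5.94 CPM under normal watering (-0.45 ± 0.18, edgeR adjusted p = 0.16). Tested singly, ZT8 had 5 members called lower in gi-2, WRKY26, WRKY25, WRKY48, WRKY6 and WRKY60 (background 2.21%), among them WRKY60 with 3.84 and 4.29 CPM under drought against 11.9 and 10.3 CPM (-1.47 ± 0.37, edgeR adjusted p = 0.0258). By edgeR 0 members were called in gi-2 at ZT1 (background 0.756%), ZT12 (0.257%) and ZT16 (0.0735%), with 8, 6 and 5 at an unadjusted p under 0.05. Of the 8 members called over all times in gi-2, 5 were also called in wild type, WRKY6, WRKY15, WRKY25, WRKY26 and WRKY28, which is 62.5% of the gi-2 calls and 33.3% of the 15 wild-type calls. Over all genes called lower the shares were 63.7% and 17.7%, so the first is near the background.

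In aba1-6, 3 of 49 members were called lower under drought and 0 higher, against 5.31% of all genes lower, 4.01% higher and 9.32% in either direction. At an unadjusted p under 0.05, 11 were lower and 2 higher, and DESeq2 called 3 lower and 0 higher. No low-count filter, only the compared libraries, a replicate block or leaving out the 2 shallowest libraries each gave more calls (numbers at the end). The median log2 fold change was -0.20, with or without 2 members that had a combination at 0, and 0.00 over all genes. WRKY26 had 0.223, 2.74 and 5.55 CPM in aba1-6 under drought, against 0.943, 4.84 and 10.5 CPM under normal watering (-0.91 ± 0.24, edgeR adjusted p = 0.00806). WRKY60 had 5.73, 9.62 and 14.4 CPM under drought, against 10.1, 12.2 and 22.9 CPM (-0.52 ± 0.16, edgeR adjusted p = 0.0384). The ranges of both overlapped. WRKY72 had 16 counts over the drought libraries and 66 over the normal ones (edgeR adjusted p = 0.00251).

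The call of WRKY26 in aba1-6 ended without drought at ZT12 r1 or normal watering at ZT16 r2, and with the first of these left out 1 member in all was called. That of WRKY60 ended in 9 of 16 such fits (edgeR adjusted p of at most 0.155): without drought at ZT1 r2, ZT8 r2, ZT12 r1 or ZT16 r1, and without normal watering at ZT1 r1, ZT8 r1, ZT8 r2, ZT12 r1 or ZT16 r1. WRKY25 had 9.18, 15.7 and 19.7 CPM in aba1-6 under drought, against 10.9, 14.9 and 20.0 CPM (-0.05 ± 0.12, edgeR adjusted p = 0.884). WRKY6 had medians of 8.48 CPM under drought and 7.40 CPM under normal watering (0.08, edgeR adjusted p = 0.839), and WRKY18 of 8.32 CPM and 10.7 CPM (-0.41 ± 0.16, edgeR adjusted p = 0.0943). Both WRKY26 and WRKY60 were also called in wild type, 66.7% of the aba1-6 calls and 13.3% of the wild-type ones, while WRKY26 and WRKY72 were shared with gi-2 (25% of the gi-2 calls, 66.7% of the aba1-6 calls). Over all genes called lower, the shares were 76.3% and 31.8% for aba1-6 with wild type, and 44.9% and 29.9% for gi-2 with aba1-6. Tested singly, edgeR called 0 members in aba1-6 at ZT1 (background 1.89%), ZT8 (1.33%), ZT12 (0.982%) and ZT16 (1.18%), with 5, 6, 4 and 1 at an unadjusted p under 0.05.

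**Figure D3:**
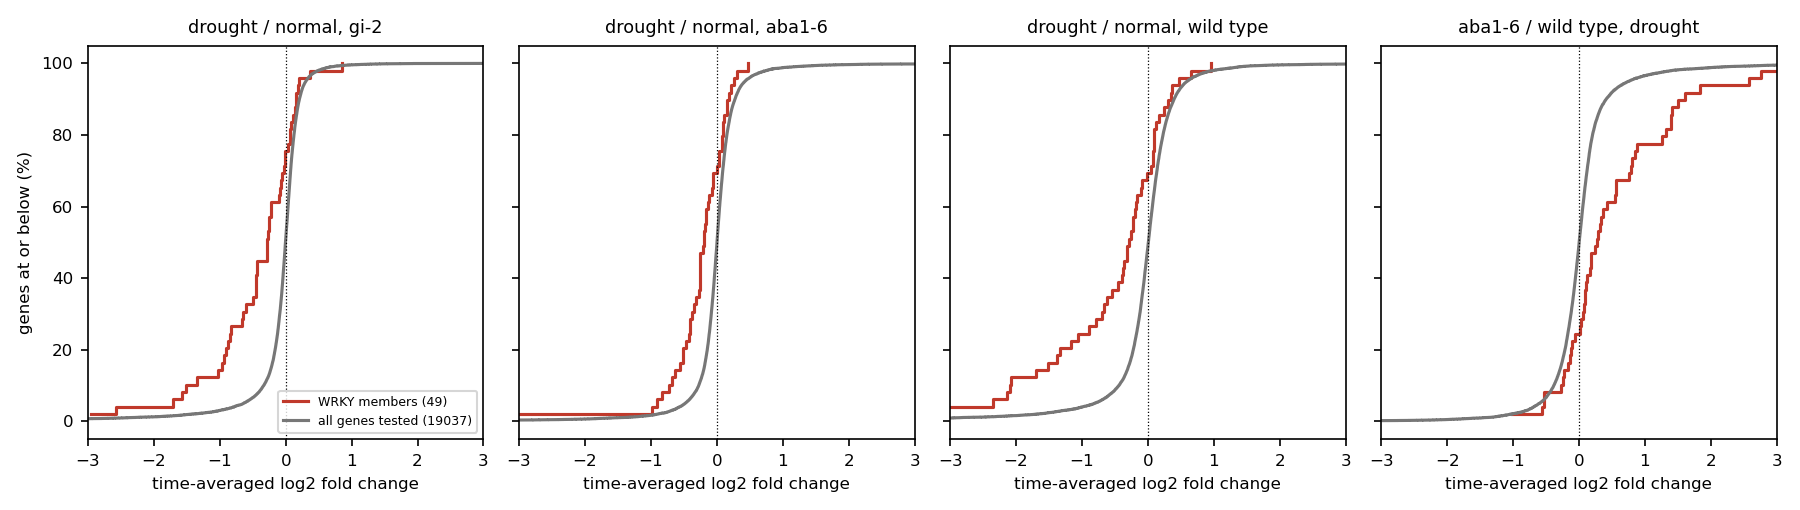
Share of genes (per cent, vertical axis) at or below each time-averaged log2 fold change (horizontal axis) for the 49 tested members in red and all 19037 tested genes in grey, drought against normal watering in gi-2, aba1-6 and wild type and aba1-6 against wild type under drought. The red curve lies left of the grey over most of the drought panels, with medians of -0.29, -0.20 and -0.28, and right of it in the last panel, with a median of 0.28; members with a combination at 0 are drawn at their fitted values.

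Whether the drought effect differed between genotypes was tested directly. For gi-2 minus wild type 1 member was called, upward (background 6.96% of all genes, 3.87% upward and 3.09% downward), and for aba1-6 minus wild type 2, also upward (2.74%, 1.83% and 0.914%). WRKY60 differed in both: its drought effect was 1.07 ± 0.28 higher on the log2 scale in gi-2 than in wild type (edgeR adjusted p = 0.0125) and 1.0 ± 0.26 higher in aba1-6 than in wild type (edgeR adjusted p = 0.0295). Both differences use the same wild-type libraries. The first held without any 1 of 32 libraries (0.95 to 1.25). The second was called in all but 8 of 32 such fits (0.88 to 1.19, edgeR adjusted p of at most 0.0678), those without aba1-6 drought at ZT1 r1, ZT8 r1, ZT12 r2 or ZT16 r2, aba1-6 normal at ZT12 r2 or ZT16 r2, or wild-type drought at ZT8 r1 or ZT16 r1. WRKY25 differed between aba1-6 and wild type by 0.65 ± 0.19 (edgeR adjusted p = 0.0455), a call lost in 24 of 32 such fits (0.50 to 0.78). It held only without aba1-6 drought at ZT12 r1 or ZT16 r1, aba1-6 normal at ZT8 r1 or ZT12 r2, wild-type drought at ZT1 r1, ZT12 r2 or ZT16 r2, or wild-type normal at ZT12 r2. For the remaining members a difference between genotypes was not called, so that a call in 1 genotype and not in another does not show a difference between them. At an unadjusted p under 0.05, 3 members differed upward and 1 downward in gi-2, and 9 upward and 1 downward in aba1-6.

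In aba1-6 compared with wild type under drought, 16 of 49 members were called higher and 0 lower over all times (DESeq2: 17 and 0), against 11.4% of all genes higher, 11.3% lower and 22.6% in either direction. The median log2 fold change was 0.28, or 0.26 without 5 members with a combination at 0, and 0.00 over all genes. This comparison and the drought effect in wild type share the 8 wild-type drought libraries, whose replicates differed more than those of the other combinations. Under normal watering 5 members were called higher and 2 lower, against 7.64% and 9.33% of all genes and 17.0% in either direction, with a median of 0.20 over the members.

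WRKY60 had 5.73, 9.62 and 14.4 CPM in aba1-6 under drought, against 1.39, 3.34 and 5.97 CPM in wild type under drought, and was 1.40 ± 0.20 higher on the log2 scale (edgeR adjusted p = 9.28e-07). WRKY25 had 9.18, 15.7 and 19.7 CPM in aba1-6, against 6.75, 7.21 and 11.3 CPM in wild type (0.88 ± 0.13, edgeR adjusted p = 2.19e-06). WRKY47 had 3.62, 5.24 and 8.81 CPM in aba1-6, against 0, 1.15 and 2.88 CPM in wild type (1.84 ± 0.28, edgeR adjusted p = 3.17e-06). The 2 ranges of WRKY47 did not overlap, and those of WRKY60 and WRKY25 overlapped narrowly. WRKY27, a group IIe factor, had 1.42, 3.15 and 5.48 CPM in aba1-6, against 0, 0.992 and 4.10 CPM in wild type (1.41 ± 0.28, edgeR adjusted p = 0.000158). WRKY65 had 1.48, 2.46 and 3.47 CPM in aba1-6, against 0.206, 1.08 and 1.30 CPM in wild type (1.40 ± 0.29, edgeR adjusted p = 0.000304). The aba1-6 values of WRKY65 all exceeded the wild-type ones, while those of WRKY27 overlapped them.

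WRKY18 (0.80 ± 0.18, edgeR adjusted p = 0.000619), WRKY28 (1.61 ± 0.37, edgeR adjusted p = 0.00133) and WRKY26 (1.51 ± 0.36, edgeR adjusted p = 0.00168) complete the 8 most firmly called. WRKY28 had 2.0, 2.55 and 4.02 CPM in aba1-6 under drought, against 0, 0.857 and 1.33 CPM in wild type, with no overlap. All 8 calls held without any 1 of the 16 libraries. Without wild-type drought at ZT16 r1, however, the values were 3.66 for WRKY47, 2.96 for WRKY27, 3.12 for WRKY28 and 0.53 for WRKY18, and without wild-type drought at ZT12 r2 WRKY26 was at 2.49. The libraries that remained at those times were at 0 for WRKY47, WRKY27, WRKY28 and WRKY26. WRKY33 rose by 0.43 ± 0.12 (edgeR adjusted p = 0.00732), with 16.7, 23.0 and 29 CPM in aba1-6 against 10.3, 17.8 and 24.1 CPM in wild type, and its call ended without wild-type drought at ZT16 r1 (edgeR adjusted p = 0.0688). WRKY29 was also called (1.32 ± 0.45, edgeR adjusted p = 0.0278), a call lost in 7 of 16 such fits. They were those without aba1-6 at ZT1 r1, ZT12 r2 or ZT16 r2, or without wild type at ZT1 r2, ZT8 r1, ZT12 r2 or ZT16 r1, and the value was 2.81 without wild type at ZT12 r1. WRKY46, which like WRKY28 is known to promote ICS1, was at 0.79 ± 0.30 and not called (edgeR adjusted p = 0.0544). WRKY40 (0.03 ± 0.32, edgeR adjusted p = 0.974) and WRKY53 (0.02 ± 0.16, edgeR adjusted p = 0.947) were not called either. The 6 remaining calls were WRKY2, WRKY3, WRKY15, WRKY36, WRKY58 and WRKY62.

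Singly, ZT1 had 7 members higher in aba1-6 under drought (background 9.82% in either direction) and ZT8 had 3 higher and 2 lower (background 5.08%). The pair that was lower at ZT8 was WRKY54, with 22.2 and 18.4 CPM in aba1-6 against 41.0 and 42.9 CPM in wild type (-1.05 ± 0.20, edgeR adjusted p = 0.000304), and WRKY70, with 45.2 and 39.2 CPM against 99.4 and 105 CPM (-1.28 ± 0.25, edgeR adjusted p = 0.00142). Over all times neither was called under drought. ZT12 had 1 member higher (background 4.75%) and ZT16 had 3 (background 3.78%).

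With normal watering, WRKY2, a group I factor known from pollen and the zygote, had 17.2, 23.9 and 27.4 CPM in aba1-6, against 12.5, 15 and 20.0 CPM in wild type (0.58 ± 0.10, edgeR adjusted p = 3.19e-05). WRKY54 was lower, with 2.91, 21.1 and 30.2 CPM in aba1-6 against 6.24, 31.4 and 40.0 CPM in wild type (-0.66 ± 0.12, edgeR adjusted p = 7.55e-05). The ranges of both overlapped. WRKY47 (0.93 ± 0.25, edgeR adjusted p = 0.0066) and WRKY65 (1.03 ± 0.28, edgeR adjusted p = 0.00753) were higher, and these 4 calls held without any 1 library. WRKY70 was lower by a less firm call (-0.39 ± 0.13, edgeR adjusted p = 0.0417, lost in 11 of 16 fits without 1 library, all but those without aba1-6 at ZT8 r1, ZT12 r2 or ZT16 r1 or wild type at ZT1 r1 or ZT8 r1). WRKY14 of group IIe (0.89 ± 0.31, edgeR adjusted p = 0.0446) and WRKY51, with 0.307, 1.19 and 5.0 CPM in aba1-6 against 0, 0.788 and 3.44 CPM in wild type (edgeR adjusted p = 0.0304), lost their calls in 13 and 7 of these fits. That of WRKY14 held only without aba1-6 at ZT12 r1 or wild type at ZT12 r1 or ZT16 r1, at 2.29 in the last case, where its other library was at 0. That of WRKY51 ended without aba1-6 at ZT1 r1, ZT8 r2, ZT12 r2 or ZT16 r1 or wild type at ZT1 r1, ZT1 r2 or ZT8 r1. Without aba1-6 normal at ZT8 r2, 4 members in all were called.

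Between gi-2 and wild type, 3 members were called lower and 0 higher under normal watering (background 5.61% lower, 7.10% higher, 12.7% in either direction), and 6 lower and 3 higher under drought (13.3%, 15.3% and 28.7%). At an unadjusted p under 0.05, 6 were lower and 2 higher under normal watering, where DESeq2 called 2. WRKY7 and WRKY39, which belong to the calmodulin-binding group IId, were lower in both regimes. WRKY7 had 3.44, 6.68 and 11.1 CPM in gi-2 under drought, against 6.20, 11.9 and 19.0 CPM in wild type (-0.81 ± 0.12, edgeR adjusted p = 4.91e-07). Under normal watering it had 5.17, 8.48 and 11.5 CPM in gi-2, against 5.08, 12.6 and 20.7 CPM in wild type (-0.46 ± 0.11, edgeR adjusted p = 0.00293, or 0.072 without wild-type normal at ZT12 r2). The ranges overlapped in both regimes. WRKY39 had 9.46, 13.8 and 20.9 CPM in gi-2 under drought, against 7.75, 20.2 and 37.7 CPM in wild type (-0.37 ± 0.11, edgeR adjusted p = 0.00703), and was 0.50 ± 0.10 lower under normal watering (edgeR adjusted p = 0.000521). WRKY18 was also called lower under normal watering (-0.51 ± 0.17, edgeR adjusted p = 0.0406), a call lost with DESeq2 (adjusted p = 0.0536) and in 10 of 16 fits without 1 library, all but those without gi-2 at ZT1 r1 or ZT12 r1 or wild type at ZT1 r2, ZT8 r1, ZT12 r2 or ZT16 r2.

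Under drought WRKY60 was 0.90 ± 0.21 higher in gi-2 than in wild type (edgeR adjusted p = 0.00123), with 3.84, 6.83 and 11.0 CPM against 1.39, 3.34 and 5.97 CPM, and WRKY26 was 1.43 ± 0.37 higher (edgeR adjusted p = 0.0027), with 1.04, 1.91 and 4.30 CPM against 0, 0.883 and 2.98 CPM. Without wild type at ZT12 r2, which leaves a library at 0, WRKY26 was at 2.41. WRKY70 was lower in gi-2 under drought (-0.49 ± 0.14, edgeR adjusted p = 0.00722), and also at ZT1 alone, with 15.6 and 6.70 CPM in gi-2 against 25.2 and 28 CPM in wild type (-1.23 ± 0.31, edgeR adjusted p = 0.0148). The calls of WRKY60, WRKY26 and WRKY70 over all times held without any 1 library. WRKY23, linked to auxin responses (-0.54 ± 0.17, edgeR adjusted p = 0.0161), WRKY3 (0.19 ± 0.06, edgeR adjusted p = 0.0207), WRKY4 (-0.31 ± 0.11, edgeR adjusted p = 0.0249) and WRKY51 (edgeR adjusted p = 0.0431) complete the 9. The call of WRKY23 ended without gi-2 at ZT16 r1 or wild type at ZT1 r1, ZT8 r2 or ZT12 r2. That of WRKY3 ended without gi-2 at ZT1 r1 or ZT12 r2 or wild type at ZT1 r2, and that of WRKY4 without gi-2 at ZT1 r1, ZT8 r2, ZT12 r1 or ZT16 r2 or wild type at ZT8 r2, ZT12 r1 or ZT16 r2. That of WRKY51 held only without gi-2 at ZT16 r1 or wild type at ZT1 r2, ZT8 r2, ZT12 r1 or ZT16 r1. Singly, ZT1 had 2 members called (background 5.91%), ZT8 had 3 (5.34%), ZT12 had 3 (11.5%) and ZT16 had 2 (8.04%).

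Time of day was tested in wild type under normal watering, with 2 libraries at each time. The time course of 15 members was called, against 38.2% of all genes (21 at an unadjusted p under 0.05, and 15 by DESeq2). WRKY54, WRKY7 and WRKY3 had the lowest p. WRKY54 had 6.50 and 6.24 CPM at ZT1, 26.9 and 39.3 CPM at ZT8, 36.0 and 40.0 CPM at ZT12 and 33.3 and 29.4 CPM at ZT16 (edgeR adjusted p = 1.24e-11). WRKY7 had 5.20 and 5.08, 12.2 and 12.9, 10.4 and 15.7, and 14.4 and 20.7 CPM at the same times (edgeR adjusted p = 1.38e-07). WRKY3, which acts against necrotrophic fungi, had 28.6 and 31.7, 55.4 and 62.0, 49.5 and 49.3, and 46.7 and 46.1 CPM (edgeR adjusted p = 2.31e-07). For all 3 both ZT1 libraries lay below every later one.

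WRKY70 followed the same order, with 26.3 and 38.5 CPM at ZT1 and between 55.8 and 79.5 CPM later (edgeR adjusted p = 0.00174, or 0.0685 without ZT1 r1). WRKY53 had 4.72 and 4.94 CPM at ZT1 and between 9.38 and 13.3 CPM later (edgeR adjusted p = 0.00423, at most 0.0907 without either ZT1 library). WRKY26 and WRKY60 had other courses. WRKY26 had 6.67 and 5.15 CPM at ZT1, 7.12 and 6.51 CPM at ZT8, 3.13 and 2.38 CPM at ZT12 and 0.793 and 1.24 CPM at ZT16 (edgeR adjusted p = 9.3e-05). WRKY60 was lowest at ZT8, with 6.00 and 5.53 CPM against 13.0 and 13.7 CPM at ZT1 and 13.0 and 14.1 CPM at ZT12 (edgeR adjusted p = 0.0221, at most 0.187 without either ZT8 library). WRKY38, a repressor of defence, was at 0 in both ZT1 libraries and had 4.36 and 3.11 CPM at ZT16 (edgeR adjusted p = 8.31e-05).

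**Figure D4:**
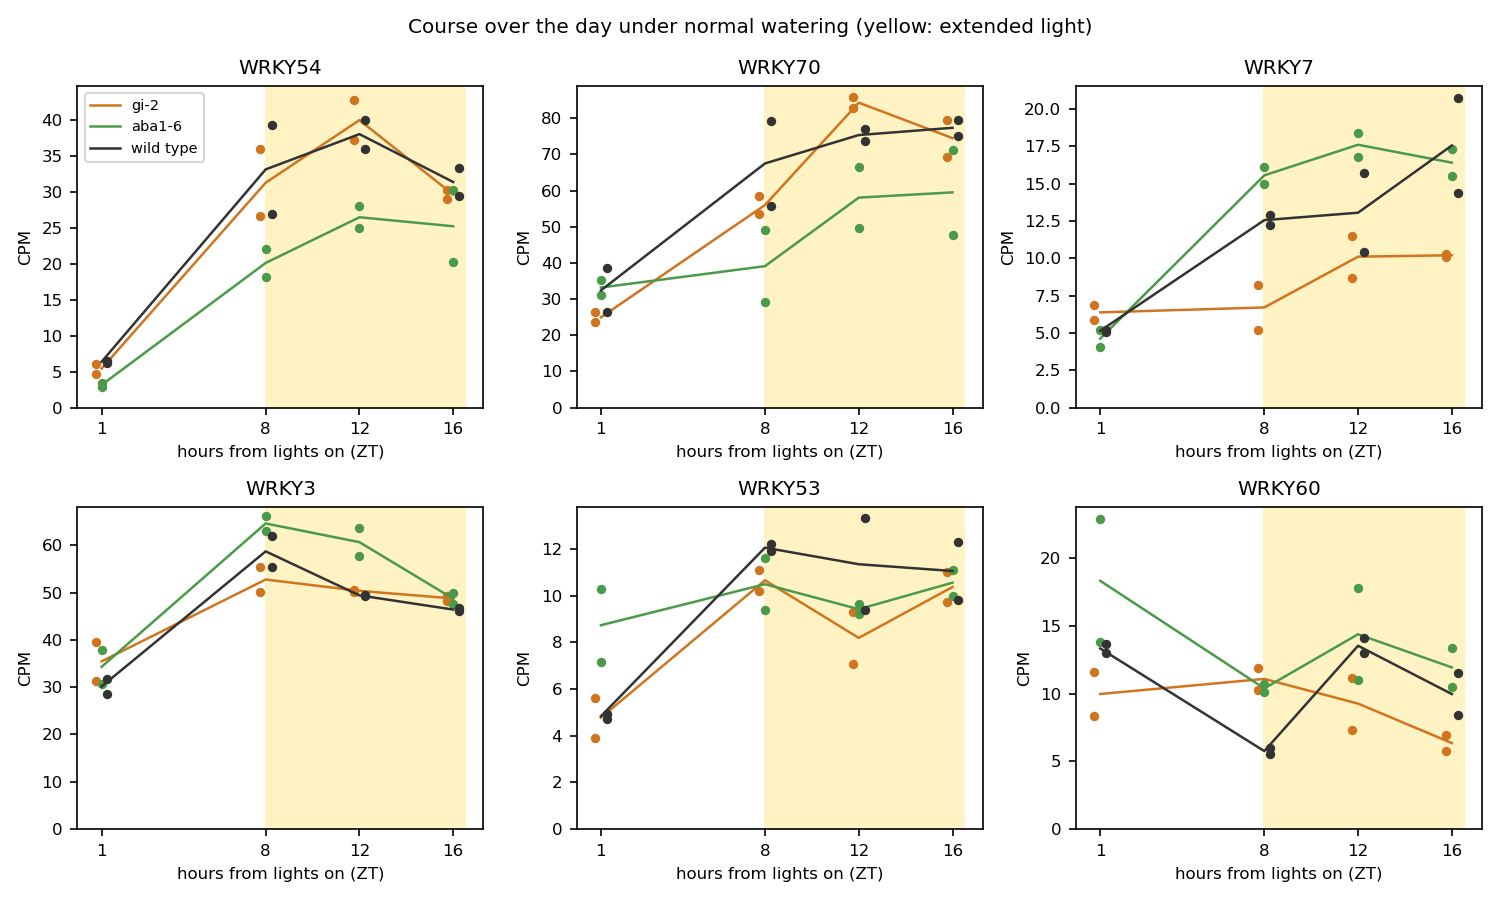
CPM of 6 members by time of harvest (ZT, hours after lights on) under normal watering in gi-2, aba1-6 and wild type; points are single libraries, lines join the means of 2, and yellow marks the extended light from ZT8 to ZT16. WRKY54, WRKY70, WRKY7, WRKY3 and WRKY53 start low at ZT1 in wild type, where WRKY60 dips at ZT8, and WRKY7 stays lower in gi-2 than in wild type at ZT8 (6.71 against 12.6 CPM) and ZT16 (10.2 against 17.6 CPM).

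Between successive times in wild type, ZT8 against ZT1 gave 7 members higher and 4 lower (background 15% and 14.5%, 29.5% in either direction). WRKY54 (2.41 ± 0.24), WRKY3 (0.96 ± 0.12), WRKY7 (1.3 ± 0.23) and WRKY53 (1.31 ± 0.34) were higher at ZT8 by calls that held without any 1 of the 4 libraries (edgeR adjusted p of 3.01e-11, 2.39e-08, 1.45e-05 and 0.00227). The calls of WRKY11 (0.65 ± 0.17), WRKY70 (1.05 ± 0.27) and WRKY38, and of the lower members WRKY60 (-1.23 ± 0.37), WRKY57 (-1.34 ± 0.41), WRKY20 (-0.41 ± 0.14) and WRKY19 (-0.42 ± 0.15), were each lost in some of these fits. WRKY38, WRKY57 and WRKY60 were lost without ZT1 r2 or ZT8 r2, WRKY11 without ZT1 r2 or ZT8 r1, WRKY70 without ZT1 r1 or ZT8 r2, WRKY20 without ZT1 r1 or ZT8 r1, and WRKY19 without ZT1 r1, ZT1 r2 or ZT8 r1. With ZT1 r2 left out 6 members in all were called. ZT12 against ZT8, the first 4 h of added light, gave 1 higher and 1 lower (background 9.12%, 4.32% higher and 4.80% lower): WRKY60 at 1.27 ± 0.38 (edgeR adjusted p = 0.0257) and WRKY26 at -1.41 ± 0.47 (edgeR adjusted p = 0.0492), the first lost without ZT8 r1, ZT8 r2 or ZT12 r2 and the second without any 1 of the 4 libraries. ZT16 against ZT12 gave 0 by edgeR and by DESeq2 (background 1.33%, and 5 members at an unadjusted p under 0.05).

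In wild type under normal watering, the highest mean fell on ZT1 for 11 of 49 members, on ZT8 for 9, on ZT12 for 12 and on ZT16 for 17, while among all tested genes the shares for these times were 32.2, 25, 19.0 and 23.7%. In gi-2 under normal watering these counts were 6, 18, 12 and 13, beside 33.1, 27.5, 19.4 and 20.0% of all genes. In aba1-6 they were 18, 10, 7 and 14, beside 34.5, 26.4, 18.9 and 20.2%, so that the ZT1 count, 36.7% of the members, was near the share of all genes. A difference in time course from wild type was called for 1 member in gi-2 (background 3.75%) and 0 in aba1-6 (background 0.205%, 2 members at an unadjusted p under 0.05, 0 by DESeq2). The 1 was WRKY7 (edgeR adjusted p = 0.0455), with 6.88 and 5.87 CPM in gi-2 at ZT1, 8.24 and 5.17 CPM at ZT8, 11.5 and 8.71 CPM at ZT12 and 10.3 and 10.1 CPM at ZT16. At ZT1 both gi-2 libraries lay above both wild-type ones (5.20 and 5.08 CPM), at ZT8 and ZT16 both lay below both, and at ZT12 they overlapped. That call was lost with DESeq2 (adjusted p = 0.0554) and in 10 of 16 fits without 1 library, all but those without gi-2 at ZT8 r1, ZT12 r1 or ZT12 r2 or wild type at ZT12 r1, ZT12 r2 or ZT16 r1.

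Genes that act with WRKY factors were read from 4 lists. As background, 2423 of all 19037 tested genes were lower under drought in wild type, 672 in gi-2 and 1011 in aba1-6. For the other comparisons, and for the marker lists below, the shares of all genes are those given above. In the salicylic acid list, 4 of 14 genes were lower and 0 higher in wild type under drought, with a median log2 fold change of -0.25 over the list against 0.01 over all genes. They include CBP60G, an activator of salicylic acid synthesis (6.62 CPM on average under drought against 11.9 CPM, -0.89 ± 0.16, edgeR adjusted p = 5.47e-05), and the defence gene PR5 (10.4 CPM against 24.3 CPM, -1.22 ± 0.22, edgeR adjusted p = 0.00017). The same list had 1 lower in gi-2, and 1 higher and 1 lower in aba1-6, counts near the shares of all genes. Under drought 4 of its genes were higher and 0 lower in aba1-6 than in wild type, CBP60G with 18.4 CPM against 6.62 CPM (1.57 ± 0.15, edgeR adjusted p = 1.32e-10). Of 8 tested immune receptors and MAP kinases, 3 were lower in wild type under drought, BAK1, BIK1 and MPK3, a kinase that phosphorylates WRKY33, with 59.7 CPM against 90.1 CPM (-0.59 ± 0.08, edgeR adjusted p = 2.06e-07). In gi-2 under drought BAK1, BIK1 and MPK3 were at -0.11, -0.30 and -0.19 and not called, and in aba1-6 MPK3 was called lower (-0.27, edgeR adjusted p = 0.0149).

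Of the 4 VQ proteins, which bind WRKY domains, SIB2 was higher in wild type under drought (0.33 ± 0.10, edgeR adjusted p = 0.00987), and SIB1 and SIB2 were lower in aba1-6 than in wild type under drought (-0.41 and -0.45). Of 8 listed targets of WRKY factors 4 were tested. Under drought 2 of them were lower in wild type, 3 in gi-2 and 4 in aba1-6, and 0 were higher. The senescence gene SAG13 averaged 0.682 CPM in wild type under drought, against 29 CPM under normal watering. That average hides a wide spread between libraries. All 8 listed targets summed to 16.9, 28.7 and 128 CPM under normal watering (lowest, median and highest library). Under drought they summed to 4.43, 8.71 and 20.0 CPM. The camalexin gene PAD3, a target of WRKY33, averaged 0.215 CPM under drought, against 1.92 CPM.

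Markers of other cell types moved with some of these groups. The 4 guard cell markers summed to between 41.1 and 58.7 CPM in wild type under drought, against 51.6 to 80.6 CPM under normal watering and 60.1 to 73.5 CPM in aba1-6 under drought. Of them 1, KAT1, was lower in wild type under drought (-0.74 ± 0.09, edgeR adjusted p = 2.89e-08) and 3 were higher in aba1-6 than in wild type under drought. The 5 root markers summed to 544 to 868 CPM in wild type under drought, against 623 to 833 CPM, with the root hair genes EXPA7 and COBL9 near 0. Of the 3 tested, 2 were lower in wild type under drought, 3 in gi-2 and 2 in aba1-6, with median log2 fold changes of -3.94, -3.06 and -2.72. NRT2.1, a nitrate transporter, averaged 0.846 CPM in wild type under drought, against 12.9 CPM under normal watering (-3.94 ± 0.45, edgeR adjusted p = 2.09e-07), and BGLU23 (PYK10), which makes up most of the sum, was at 0.05 ± 0.09 (edgeR adjusted p = 0.708). The 5 floral markers summed to at most 4.35 CPM in any library, with AP1 and LFY at or near 0. The 5 leaf markers, abundant throughout at 19489.9 to 52206 CPM in sum, had 4 members higher in gi-2 than in wild type under drought and 3 under normal watering. The part of these markers in the WRKY values was not tested.

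Neighbouring genes can add reads where exons overlap, since the sources used here do not say whether counting used strand. Besides WRKY29, the annotation has WRKY41 sharing 491 exon bases with its neighbour, WRKY53 sharing 311 and WRKY69 sharing 264, while WRKY2, WRKY4, WRKY33 and WRKY40 share between 43 and 70.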

How the data were processed

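Poly(A) RNA libraries were made with the TruSeq kit, per the labels' protocols. The authors deposited 1 table of expected counts, an estimated unit in which 98.6% of values were whole, judged from the values. The submitters' processing notes name the tools Bowtie2, RSEM and edgeR and the build TAIR10, with no version, setting or strand. In 1 deposited column each value ends in an extra tab, so its unit was entered as other; read without the tab it holds expected counts. Whole values of at most 10 were mostly even in every library (up to 80.2%), so 1 read pair may give 2 counts, and no counting intervals are given.

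Values were rounded to whole counts. In R 4.3.3 with edgeR 4.0.16, genes passing filterByExpr (19037) were scaled by TMM (factors 0.862 to 1.14) and fitted with 24 group means and robust quasi-likelihood F-tests (24 residual degrees of freedom, biological coefficient of variation 12.1%), adjusted by Benjamini-Hochberg over all 19037. Time-averaged log2 fold changes are means of the 4 log2 ratios, and CPM uses the TMM-scaled totals. Where a combination had both libraries at 0, no fold change of that member is printed from the fit on all libraries. Values given for fits without 1 library can rest on a lone library at 0. Such values show only how far the result moved and are no measured sizes. In simulated data with 200 genes changed by 2-fold, 89.5% were called for the drought effect in wild type (18621 genes run). There 18 unchanged genes were called too. The changed genes were drawn from all tested genes and changed alike at every time, so the share does not describe low-count members or effects that vary by time. Since p-values rest on pools labelled as biological replicates, they measure the spread between pools. That spread was estimated for each gene over all 24 combinations together. Replicates differed most in wild type under drought, with a chi-square per degree of freedom of 10.5 to 12.7 at the 4 times. In the other combinations it was 2.88 to 7.84. SE and p-values that use the wild-type drought libraries may therefore be too small, which was not tested. Promoters and coding sequences were read from the TAIR10.1 genome, and close copies were searched with blastn 2.17.0.

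The members, gene lists and named genes were chosen with earlier results of these data known. Named were, per comparison, up to 8 called members per direction with the lowest adjusted p, plus a panel chosen for known roles (WRKY6, 18, 22, 25, 29, 33, 40, 46, 53, 54, 57, 60, 63, 70, 75); the rest are counted or listed. WRKY63 is no member under that name. Alternatives were DESeq2 1.42.0, RLE and library-total scaling, no filter, only the compared libraries, a replicate block, and leaving out the 2 shallowest libraries or each library in turn.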

Additional observations from a re-analysis of the deposited data

Results flagged for a closer look

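The drought effect of WRKY60 differed by a test of the difference itself between gi-2 and wild type (1.07 ± 0.28 on the log2 scale, edgeR adjusted p = 0.0125) and between aba1-6 and wild type (1.0 ± 0.26, edgeR adjusted p = 0.0295). That of WRKY25 differed between aba1-6 and wild type by 0.65 ± 0.19 (edgeR adjusted p = 0.0455). The time course of WRKY7 under normal watering differed between gi-2 and wild type (edgeR adjusted p = 0.0455). Leaving out 1 library ended the aba1-6 call of WRKY60 in 8 of 32 fits, that of WRKY25 in 24 of 32 and that of WRKY7 in 10 of 16. The call of WRKY7 was also lost with DESeq2. The wild-type drought libraries of WRKY60, from 1.39 to 5.97 CPM, enter both of its differences.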

How the results depend on the processing

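No setting other than leaving out a library turned the direction of a named member: 1660 values kept direction and side of the threshold, 32 lost and 47 gained a call. Without 1 library each, 3538 stayed, 190 lost and 35 gained a call and 1 turned: WRKY29 under drought in wild type was at 0.40 without normal watering at ZT12, replicate 2, which leaves a lone library at 0, against -1.38 with all libraries and -2.87 without drought at ZT12, replicate 1. Counts of called members moved beyond 1.5 times as follows. With no low-count filter they were 14 for drought in gi-2, 6 for drought in aba1-6, 3 and 4 for the differences of gi-2 and aba1-6 from wild type, and 1 for ZT16 against ZT12. Fitted on the compared libraries alone they were 13, 9 and, for aba1-6 minus wild type, 1, and 1 for ZT12 against ZT8. With library totals as the only scaling they were 1 for aba1-6 minus wild type, 1 for ZT12 against ZT8 and 0 for the gi-2 time course, which DESeq2 also put at 0. Without the 2 shallowest libraries they were 5 for drought in aba1-6, 1 for aba1-6 minus wild type and 1 for ZT12 against ZT8. The cause was not tested. Members called higher under drought in wild type numbered 1 with library totals and 1 without the 2 shallowest libraries. With no filter WRKY70 was lower in aba1-6 than in wild type under drought (-0.26, edgeR adjusted p = 0.00349). Library totals shifted the median of all genes to 0.10 for ZT8 against ZT1 and 0.11 for ZT12 against ZT8.

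Leaving out 1 library at a time gave 6 to 9 members called under drought in gi-2, 1 to 4 in aba1-6 and 10 to 18 in wild type. The ranges were 7 to 11 for gi-2 against wild type under drought and 2 to 4 under normal watering, and 14 to 17 and 4 to 10 for aba1-6. For the differences of drought effects from wild type, gi-2 gave 1 to 3 and aba1-6 gave 0 to 3. Time of day gave 11 to 18, the gi-2 time course 0 to 1, the aba1-6 time course 0 to 0, ZT8 against ZT1 6 to 9, ZT12 against ZT8 0 to 2 and ZT16 against ZT12 0 to 0. Same-numbered libraries correlated in their deviations with r between -0.08 and 0.16 in gi-2, between -0.11 and 0.22 in aba1-6 and between 0.07 and 0.26 in wild type (over 0.1 for 23 of 28 pairs of groups there, and for 1 of 28 in each mutant). The numbers were to be taken as pairs only if every correlation was over 0.1, and the labels tie them to no shared batch, so the fit has no block. A replicate block within each genotype gave 7 for drought in aba1-6, 4 for aba1-6 minus wild type and 2 for gi-2 minus wild type, and left drought in wild type at 15. Members under about 1 CPM, such as WRKY75 and WRKY72, are limited by depth.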
